A study of Sus scrofa with 2 samples.

Results

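The genes of the inhibin, activin and follistatin system were examined in single somatic cells of porcine antral follicles. The members were taken by gene symbol from the list that both libraries share, and all 9 of the 9 symbols sought were found once among 22342 genes. They are the subunits INHA, INHBA and INHBB, the antagonists FST and FSTL3, the type I receptors ACVR1 and ACVR1B, and the type II receptors ACVR2A and ACVR2B.

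Inhibins and activins belong to the TGF-β family and are built from shared subunits. An alpha subunit joined to a beta subunit gives an inhibin, and a pair of beta subunits gives an activin. Activin binds a type II receptor, which brings in a type I receptor and leads to phosphorylation of SMAD2 and SMAD3, whereas inhibin, helped by the co-receptor TGFBR3, occupies type II receptors without starting that signal. Follistatin and its relative FSTL3 bind activin and keep it from its receptors. Granulosa cells of large follicles are a main source of inhibin, which acts on the pituitary to hold back FSH.

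The series holds 1 10x Genomics 3′ library from each of 2 healthy antral follicles of over 7 mm, called follicle 1 and follicle 2. Both came from the ovaries of 1 pubertal Landrace × Yorkshire pig aged 210 days. According to the study's methods the animal had received pregnant mare serum gonadotropin, a treatment that both follicles therefore share. The cells were flushed from the punctured follicles, and cumulus cells were freed from the cumulus-oocyte complexes with hyaluronidase. With 1 library per follicle and 1 pig there is no replicate, so no test between follicles was possible. None was made between clusters either, and the intervals given are 95% intervals for counting error only.

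Follicle 1 gave 9362 cells with 2000 to 5000 genes and under 7% mitochondrial UMIs (unique molecular identifiers, 1 per captured molecule), and follicle 2 gave 7843. Median depth was 11254.5 UMIs per cell in follicle 1 and 13902 in follicle 2. The 2 libraries shared 18 cell barcodes among the kept cells, and leaving those out moved no member's ratio between follicles by more than 0.489%. Of 5 granulosa markers measured, CYP11A1 and NR5A2 were abundant and AMH was at 0 in follicle 1. FSHR was at only 1.80 and 2.16 CPM (counts per 1000000 UMIs) in follicles 1 and 2. CYP19A1 was at 28.9 CPM in the largest cluster of follicle 1. Of 5 oocyte markers, 4 were at 0 in both follicles. Leukocyte markers summed to 13.8 and 15.4 CPM and stromal markers to 0.566 and 4.42 CPM in follicles 1 and 2. The summed theca list was higher, at 388 and 564 CPM. In the largest cluster it summed to 441 and 610 CPM, most of it INSL3 at 376 and 551 CPM. There LHCGR and NR2F2 gave most of the rest, while CYP17A1, the defining enzyme, was at 1.81 and 1.92 CPM. The part that such cells take in the results below was not tested, apart from the blood-cell barcodes given beside them.

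The genes were located on the Sscrofa11.1 assembly through the RefSeq annotation. INHA (ENSSSCG00000020771 in the deposited list) is at chr15:121581847-121586020 on the plus strand, and INHBB (ENSSSCG00000038610) is at chr15:30999994-31004405 on the minus strand. Chromosome 15 also carries ACVR1 (ENSSSCG00000015874, chr15:64749478-64891653, minus) and ACVR2A (ENSSSCG00000015669, chr15:4177333-4259056, minus). FST (ENSSSCG00000016892) is at chr16:32806341-32811382 on the plus strand and FSTL3 (ENSSSCG00000037102) at chr2:77656655-77662608 on the minus strand. ACVR1B (ENSSSCG00000000233) is at chr5:17314322-17350726 and ACVR2B (ENSSSCG00000011257) at chr13:23237699-23276086, both on the plus strand. INHBA (ENSSSCG00000035077) is broken in this assembly. RefSeq places part of its transcript at chr18:52889684-52909260, where 59% of it aligns, and part at chr12:53115379-53117128, where 48% aligns, both on the plus strand. Which piece the deposited INHBA counts cover is not given in the sources used here, so the level of INHBA relative to other genes may be too low. Comparisons of INHBA between cells or follicles use the same gene model on both sides.

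INHBB had the highest ratio between clusters among the members, as given further on (11.3-fold in follicle 1 and 12.7-fold in follicle 2), so the 250 bases before its annotated start are shown here from the RefSeq assembly, read 5′ to 3′ along the gene's own strand. They were searched on both strands for TGACG, which is the core of a cyclic AMP response element. They were also searched for AAGGTCA, which NR5A nuclear receptors bind, then for AGATAA, to which GATA factors bind, and for the TATA box TATAAA. A match would be in capitals.
INHBB, chr15:31004406-31004655, minus strand: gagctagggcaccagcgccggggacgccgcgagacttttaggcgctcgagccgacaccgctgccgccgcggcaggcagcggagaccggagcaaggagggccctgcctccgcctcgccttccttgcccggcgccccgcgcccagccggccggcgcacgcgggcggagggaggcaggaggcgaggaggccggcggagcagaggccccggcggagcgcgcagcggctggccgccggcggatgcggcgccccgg
None of the 4 motifs was found in the INHBB window. Among 19556 windows of this length before protein-coding genes, 8.08% held AGATAA, 19.6% held TGACG, 3.21% held AAGGTCA and 9.77% held TATAAA. The window before INHBB was rich in G and C, at 80.4%, and held 40 CG pairs. The median window held 57.6% G and C and 12 CG pairs, and 95.7% of windows were poorer in G and C than that of INHBB.

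The alpha subunit was the most abundant of the 9 genes and the beta subunits were the ones that differed most between follicles. INHA reached 19854 CPM in follicle 1 (95% interval 19828 to 19880) and 23176 CPM in follicle 2 (23147 to 23204), and it ranked 2 among all genes in both. INHA was thus 1.17-fold higher in follicle 2. INHBA, which encodes the beta A subunit of activin A and inhibin A, reached 2036 CPM in follicle 1 and 523 CPM in follicle 2. It was 3.89-fold lower in follicle 2 (3.86 to 3.93). INHBB, which encodes the beta B subunit, was at 68.5 CPM in follicle 1 and 21.8 CPM in follicle 2, 3.15-fold lower (3.0 to 3.3).

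Summed over all kept cells, the antagonists were close to level between the follicles. FST, which encodes follistatin, was at 146 CPM (144 to 149) in follicle 1 and 149 CPM (147 to 152) in follicle 2, a ratio of 1.02 (0.997 to 1.04). FSTL3 was at 422 CPM (418 to 426) in follicle 1 and 379 CPM (376 to 383) in follicle 2, a ratio of 0.899. FSTL3 was therefore the more abundant antagonist, with 2.88 UMIs for each FST UMI in follicle 1 and 2.54 in follicle 2.

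The receptors were far less abundant than INHA and INHBA. ACVR1B, the type I receptor for activin also known as ALK4, was at 49.9 CPM in follicle 1 and 35.1 CPM in follicle 2, a ratio of 0.703 (0.675 to 0.733). ACVR1, a type I receptor used mainly by BMP ligands, was at 26.3 CPM in follicle 1 and 26.0 CPM in follicle 2. ACVR2A was at 12.0 CPM in follicle 1 and 11.3 CPM in follicle 2, and ACVR2B at 2.54 and 2.67 CPM. The intervals of the ratios of ACVR1, ACVR2A and ACVR2B all included 1.

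Because a 3′ library counts 1 tag per molecule whatever the transcript length, levels were also set side by side between genes. Such a comparison rests on the gene models, and the level of INHBA may be too low for the reason given above. In order of level, both follicles ran from INHA through INHBA, FSTL3 and FST to the type II receptors. INHBB stood above ACVR1B and ACVR1 in follicle 1 (68.5 against 49.9 and 26.3 CPM) but below both in follicle 2 (21.8 against 35.1 and 26.0 CPM). No neighbours in either order had overlapping counting intervals.

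**Figure D1:**
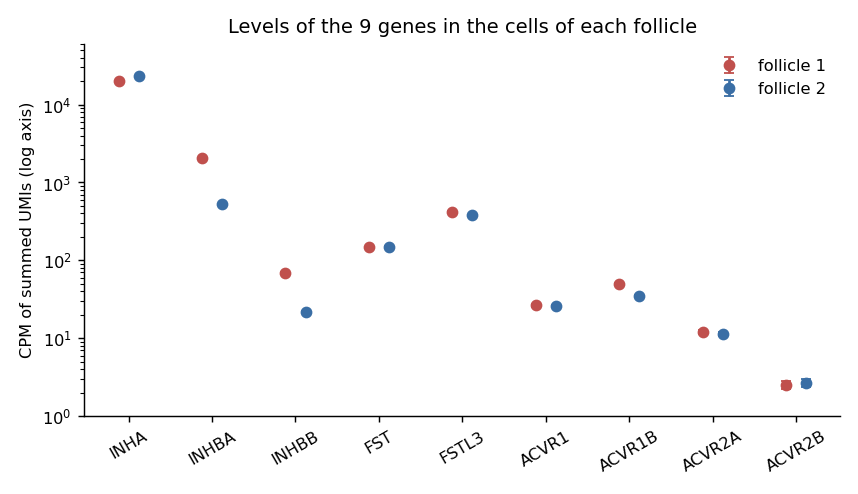
Level of each of the 9 genes as CPM of UMIs summed over the kept cells of follicle 1 (red) and follicle 2 (blue), on a log axis; bars are exact Poisson 95% intervals and are mostly smaller than the points. INHBA (2036 against 523 CPM) and INHBB (68.5 against 21.8 CPM) are the genes whose points stand clearly apart.

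A ratio past 1.5-fold was used as a description of size, over genes with at least 200 UMIs in both groups summed. Of 10675 such genes, 2.13% were higher and 4.16% lower in follicle 2 by this measure. Of the 9 members, all above that floor, 2 were lower (INHBA and INHBB) and 0 were higher. Only 0.562% of genes had a lower ratio than INHBA and 0.759% a lower ratio than INHBB. ACVR1B was near the limit but inside it, with 5.03% of genes below it.

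**Figure D2:**
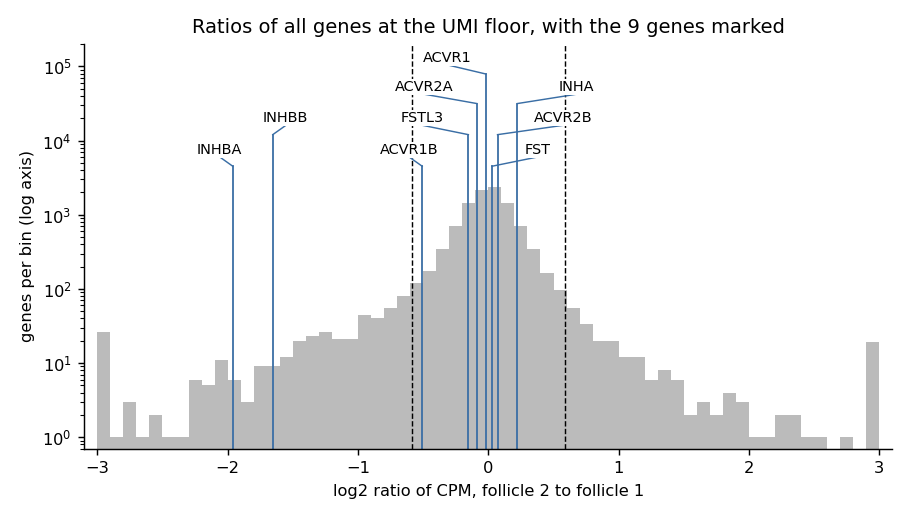
Histogram of the log2 ratio of CPM, follicle 2 to follicle 1, for 10675 genes, with gene counts on a log axis, ratios beyond the axis gathered in the end bins and dashed lines at 1.5-fold. Vertical lines mark the 9 genes, of which INHBA (-1.96) and INHBB (-1.65) lie in the left tail and the others between the dashed lines.

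Because the beta subunits differed and the alpha subunit did so little, the balance of subunit transcripts was not the same in the follicles. INHA had 9.44 UMIs for each UMI of INHBA plus INHBB in follicle 1 (9.40 to 9.48) and 42.5 in follicle 2 (42.2 to 42.9). INHBA made up nearly all beta-subunit UMIs, with 29.7 for each INHBB UMI in follicle 1 and 24.0 in follicle 2. FST had 0.0696 UMIs for each beta-subunit UMI in follicle 1 and 0.274 in follicle 2. Both antagonists summed reached 0.270 UMIs per beta-subunit UMI in follicle 1 and 0.971 in follicle 2. The change in these last ratios came with near-level antagonist counts, 63220 UMIs in follicle 1 and 57586 in follicle 2, and with beta-subunit counts of 234028 and 59334 UMIs. Any undercount of INHBA from its broken gene model would raise the alpha-to-beta ratios of both follicles.

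The cells were grouped by integrating the follicles on variable genes from which the members and the pathway list were left out, so the clusters did not use these genes directly. Of 6 clusters, cluster 0 held 6377 cells of follicle 1 and 5846 of follicle 2 and was led by TGFB3, ENPP2 and IL33. Cluster 1 held 2331 and 991 cells, was led by ARPP21, ALPK2 and SHAS2, and had the highest summed level of the 4 cumulus granulosa markers (8788 and 1466 CPM, against 950 and 507 CPM in cluster 0). It is called by its number, since AREG, a mural marker, stood at 4554 CPM in its follicle 2 cells. Cluster 2 held 683 cells of follicle 2 and 0 of follicle 1 and was led by DEFB1, CCL26 and CEMIP, with the smooth muscle genes MYH11 and ACTA2 also among its top 10. Cluster 3, with 456 and 121 cells, was cycling-like and led by TOP2A and CDCA8. Cluster 4, with 172 and 169 cells, was led by ALDH1A2 and SLC24A1, and cluster 5, with 26 and 33 cells, by a mixture of leukocyte and interferon genes.

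In follicle 1, beta-subunit transcripts were concentrated in cluster 1 and the alpha subunit was lower there. INHBA was at 5647 CPM in cluster 1 and 682 CPM in cluster 0 of follicle 1, 8.28-fold higher (8.19 to 8.36). INHBB was at 203 and 17.9 CPM, 11.3-fold higher (10.6 to 12.0). INHA was at 13529 CPM in cluster 1 and 22724 CPM in cluster 0, 1.68-fold lower. Cluster 1 held 23.4% of all UMIs of follicle 1, yet 64.8% of its INHBA UMIs, 69.2% of its INHBB UMIs and 15.9% of its INHA UMIs. Of 9717 genes compared, 7.88% were higher and 13.1% lower in cluster 1 by over 1.5-fold, and among the 9 members 2 were higher and 1 was lower. FSTL3 was at 532 CPM in cluster 1 and 376 CPM in cluster 0, and FST at 157 and 140 CPM, both within 1.5-fold. Relative to the median gene of that comparison, FSTL3 was 1.51-fold higher and so just past the limit. FST had 0.0269 UMIs per beta-subunit UMI in cluster 1 of follicle 1, against 0.200 in cluster 0.

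The cycling-like cluster 3 of follicle 1 followed the same directions. Its INHBA level was 3581 CPM, 5.25-fold that of cluster 0, and its INHBB level 129 CPM, 7.19-fold that of cluster 0. INHA was at 12013 CPM, 1.89-fold lower. ACVR1B, at 68.4 CPM, was 1.53-fold higher (1.39 to 1.68), and ACVR2B was 1.70-fold higher on 30 UMIs (1.11 to 2.51). In that comparison 10.2% of all genes were higher and 10.9% lower, and 4 members were higher and 1 lower. Cumulus granulosa markers summed to 5155 CPM in cluster 3 of follicle 1 and 662 CPM in that of follicle 2. Mural granulosa markers summed to 1693 and 3935 CPM there, so the cells of cluster 3 were not the same mix in both follicles. The part of that mix in the ratios of cluster 3 was not tested.

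In follicle 2 the same clusters differed less from cluster 0. INHBA was at 1216 CPM in cluster 1 and 393 CPM in cluster 0, 3.09-fold higher (3.04 to 3.15), and was the 1 member past 1.5-fold, where 3.1% of all genes were higher and 2.71% lower. INHBB was at 14.7 CPM in cluster 1 and 14.2 CPM in cluster 0, and INHA at 23199 and 24512 CPM. Without integration 4 members were past 1.5-fold in this comparison, and with 20 components 3 were, so the count rests on how cluster 1 was drawn in follicle 2. The log2 ratio of INHBA was 1.63 as drawn here, 0.92 without integration and 2.38 with 20 components. Without integration those of INHBB and FST were 1.92 and 0.88, against 0.05 and 0.12. In cluster 3 of follicle 2, INHBA was at 664 CPM, 1.69-fold that of cluster 0, while INHBB was at 16.2 CPM on 36 UMIs. ACVR1 was lower there on 32 UMIs, and ACVR2B on 3 UMIs with an interval that included no difference, so 1 member was higher and 2 were lower, beside 9.18% and 9.85% of all genes.

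**Figure D3:**
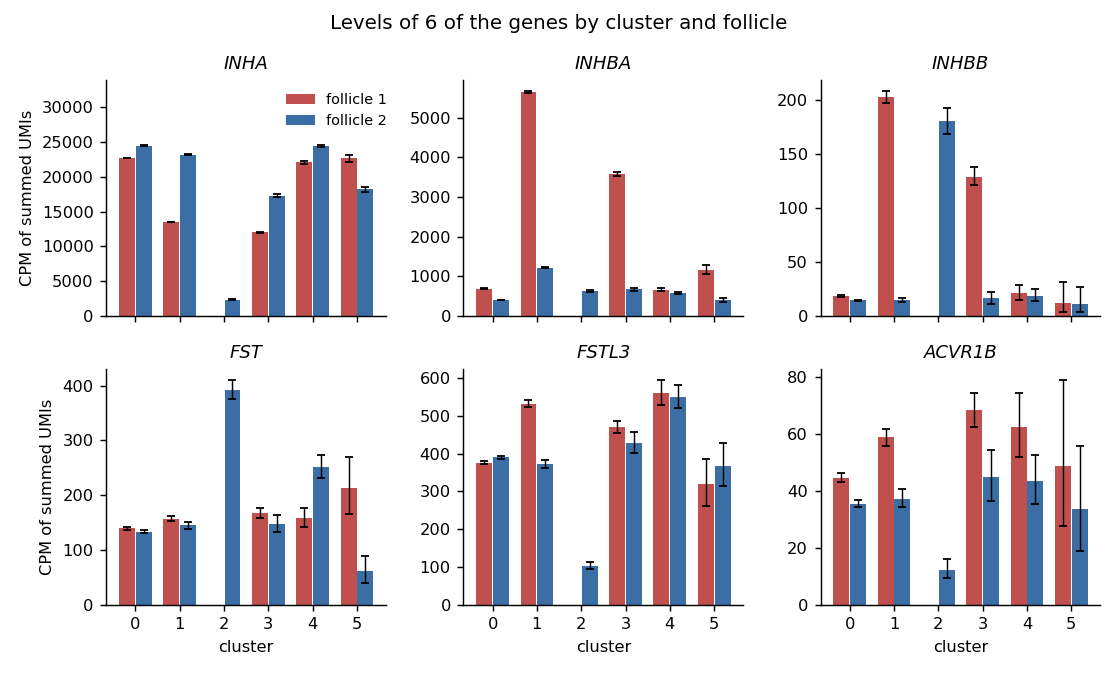
Level of 6 of the genes, as CPM of UMIs summed over the cells of each cluster, in follicle 1 (red) and follicle 2 (blue), with exact Poisson 95% intervals; cluster 2 has no cells of follicle 1. INHBA and INHBB are highest in cluster 1 of follicle 1 (5647 and 203 CPM), where INHA is low (13529 CPM), and INHA is lowest in cluster 2 (2303 CPM).

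Cluster 2, seen in follicle 2 alone, had a different set of members. INHA was at 2303 CPM (2260 to 2346), 10.6-fold lower than in cluster 0 of the same follicle. INHBB was at 180 CPM, 12.7-fold higher (11.6 to 13.9), and cluster 2 held 36.8% of the INHBB UMIs of follicle 2 with 4.44% of its UMIs. FST was at 392 CPM, 2.94-fold higher, and FSTL3 at 104 CPM, 3.76-fold lower, so that FST exceeded FSTL3 here with 0.265 FSTL3 UMIs for each FST UMI. ACVR1B was at 12.4 CPM on 60 UMIs, 2.87-fold lower, and ACVR2A at 23.1 CPM on 112 UMIs, 2.12-fold higher. ACVR2B was 2.03-fold higher on 25 UMIs (1.28 to 3.08). INHBA, at 631 CPM, was 1.60-fold higher.

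These ratios stand against a general shift, since the median gene was 1.28-fold higher in cluster 2 than in cluster 0, with 39.0% of genes higher and 14.8% lower by over 1.5-fold. The 5 members higher and 3 lower are to be read beside those shares. Relative to the median gene, INHBA was 1.25-fold higher and no longer past the limit, and it was also within the limit with 20 components or without integration. INHBB stayed 9.88-fold and FST 2.29-fold higher, while INHA was 13.7-fold, FSTL3 4.83-fold and ACVR1B 3.68-fold lower. Median depth in cluster 2 was 6435 UMIs, against 14247 in cluster 0. Granulosa markers summed to 2245 CPM in cluster 2 and 2224 CPM in cluster 0, most of it from CYP11A1, the enzyme that starts steroid synthesis, at 1966 and 1687 CPM. Of the same list, FSHR, the FSH receptor, was at 38.4 and 0.367 CPM, and NR5A2 was lower, at 206 and 500.1 CPM. The 5 stromal markers summed to 43.0 CPM in cluster 2 and 2.60 CPM in cluster 0, all 5 with UMIs in both. Of the 4 endothelial markers VWF was higher, at 22.3 and 0.474 CPM, PECAM1 and KDR were lower and CDH5 was at 0, and MYH11 stood at 102 CPM. The part of such cells in these ratios was not tested.

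Red-cell-like barcodes, with over 50% of their UMIs from HBB, should lack these genes and were used to gauge free RNA. The 8 such barcodes in follicle 1 and 35 in follicle 2 held INHA at 1372 CPM (955 to 1908) and 1805 CPM (1594 to 2037), with a UMI in all of them, at median depths of 3036.5 and 4285 UMIs. The 2303 CPM of INHA in cluster 2 (2260 to 2346) was above the interval of the red-cell-like barcodes of follicle 2. The HBB share of these barcodes lowers their CPM of other genes, so that CPM is not a direct measure of free RNA in cells. How much of the INHA in cluster 2 was free RNA was not tested, and its detection there is not read as expression. INHBA was at 82.4 CPM in the red-cell-like barcodes of follicle 2, 21.9 INHA UMIs for each INHBA UMI, whereas cluster 2 held 3.65 INHA UMIs for each. INHBB and FST had 0 UMIs in those 35 barcodes, which allows up to 25.3 CPM for each, below the 180 and 392 CPM of cluster 2. In the 26 leukocyte-like barcodes of follicle 2, INHA was at 8498 CPM, and INHBB had 0 UMIs.

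In the small cluster 4, FST was at 252 CPM in follicle 2, 1.89-fold that of cluster 0, and at 159 CPM in follicle 1, 1.13-fold. In follicle 1, 0 members were past 1.5-fold there, beside 7.0% of genes higher and 7.62% lower. In follicle 2, FST was the 1 member higher and 2 members were lower, beside 6.47% and 8.29% of genes. The lower ones were ACVR1 on 40 UMIs and ACVR2B on 3 UMIs, the latter with an interval that included no difference. FSTL3, at 561 and 550.1 CPM in cluster 4, and INHA, at 22099 and 24468 CPM, were within the limit in both follicles, as was INHBA at 655 and 567 CPM.

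The follicles were also compared within clusters, although the cells of a cluster were not the same mix of finer groups in both. In cluster 0, INHBA was at 682 CPM in follicle 1 and 393 CPM in follicle 2, a ratio of 0.576 (0.568 to 0.584), and it was the 1 member lower by over 1.5-fold, where 0.483% of genes were higher and 1.73% lower. INHBB was at 17.9 and 14.2 CPM and INHA at 22724 and 24512 CPM in that cluster, both within the limit. In cluster 1 the gap was wider. INHBA was at 5647 CPM in follicle 1 and 1216 CPM in follicle 2, a ratio of 0.215, and INHBB at 203 and 14.7 CPM, a ratio of 0.0725 (0.0629 to 0.0831). INHA was 1.71-fold higher in follicle 2 in cluster 1, and ACVR1B fell from 58.9 to 37.3 CPM, a ratio of 0.634. In follicle 1, cluster 1 was made of fine clusters 2, 4 and 7 (described further on), and in follicle 2 mainly of fine cluster 2. Within fine cluster 2, INHBA was at 2843 and 1003 CPM and INHBB at 47.5 and 13.8 CPM, a smaller gap than over the whole cluster. Over the whole of cluster 1, that made 1 member higher and 3 lower of 8 above the floor, beside 7.5% and 7.61% of all genes.

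The beta subunits were also lower in follicle 2 at equal shares of the 6 clusters. Follicle 2 was given the share of UMIs that each cluster had in follicle 1, which drops cluster 2. INHBA was then 3.36-fold lower instead of 3.89-fold, and INHBB 4.72-fold lower instead of 3.15-fold. The mix of finer groups within each cluster was left as it was. At a finer resolution of 12 clusters, 8 had at least 100 cells of each follicle. INHBA was lower in follicle 2 in 8 of the 8, with ratios from 0.185 to 0.878, and INHA was higher in 8 of the 8, with ratios from 1.04 to 1.76. INHBB, ACVR1B and ACVR2A were each lower in 7 of the 8, and ACVR1 in 6. FSTL3 was lower in 5 and higher in 3, with ratios from 0.543 to 1.17. FST and ACVR2B were each lower in 4 and higher in 4. The 8 finer clusters are parts of the same 2 libraries, so these counts are not independent comparisons. No share of all genes with such counts was taken.

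The finer clusters also showed how far the subunit balance ranged. Fine cluster 7, with 412 cells of follicle 1 and 4 of follicle 2, had INHBA at 8961 CPM, INHBB at 660 CPM and INHA at 6410 CPM in follicle 1. Its INHA to beta ratio was 0.666, the 1 finer cluster of over 100 cells with more beta than alpha UMIs. VCAN, a matrix proteoglycan of cumulus cells, was at 8543 CPM there and AREG at 190.0 CPM. At the other end, fine cluster 8 of follicle 2, with 250 cells, had INHA at 33267 CPM and INHBA at 223 CPM, with 141 INHA UMIs for each UMI of INHBA plus INHBB. Fine cluster 4 showed the follicle difference within a VCAN-rich group, with 1118 cells of follicle 1 at 6472 CPM of INHBA and 102 cells of follicle 2 at 2455 CPM. VCAN moved with it, at 6677 CPM in follicle 1 and 1669 CPM in follicle 2, so this cluster differed between the follicles in its marker as well.

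**Figure D4:**
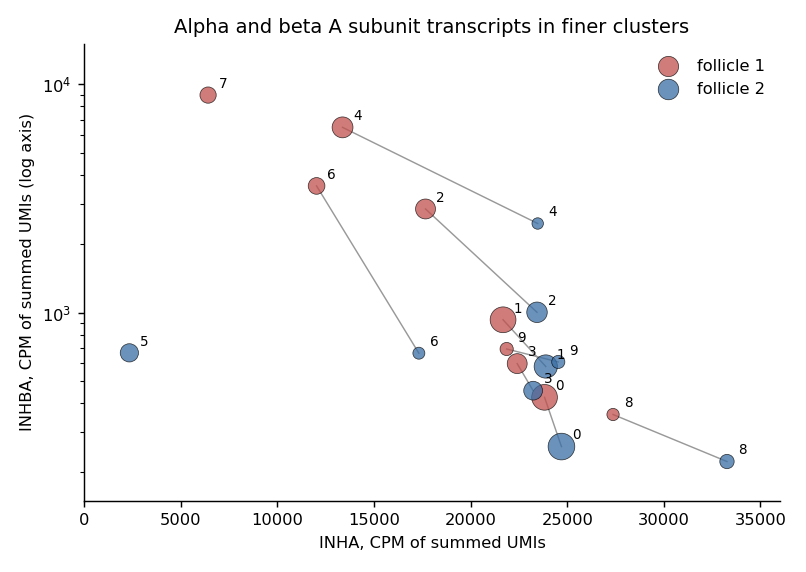
INHBA level (log axis) against INHA level, both as CPM of summed UMIs, in the finer clusters with at least 100 cells of a follicle; numbers name the clusters, larger points hold more cells, and lines join the same cluster in follicle 1 (red) and follicle 2 (blue). Every joined pair has less INHBA and more INHA in follicle 2, and fine cluster 7 lies at the upper left (6410 and 8961 CPM).

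Single cells were compared after each was drawn down to 5000 UMIs, which left out 19 cells of follicle 1 and 105 of follicle 2. INHA was present in 100% of cells of both follicles, with a median of 98 UMIs in follicle 1 and 111 in follicle 2. INHBA was unevenly spread, with a median of 3 UMIs in follicle 1 and 1 in follicle 2, and the 10% of cells richest in it held 48.6% and 52.9% of its UMIs. The same share for INHA was 17.8% and 18.4%. INHBA was found in 84.4% of thinned cells of follicle 1 and 62.7% of follicle 2 (95.1% and 82.2% before thinning). In red-cell-like barcodes INHBA was found in 2 of 8 and 10 of 35, INHBB in 1 of 8 and 0 of 35, FSTL3 in 1 of 8 and 2 of 35, and FST in 0 of both. With so few barcodes, the INHBB shares of both follicles and the FST share of follicle 1 cannot be set apart from this background. The upper limits of the background shares are 52.7% and 10.0% for INHBB in follicles 1 and 2, and 36.9% for FST in follicle 1. INHBB was found in 16% and 9.15% of thinned cells, FST in 34.9% and 33.9%, and FSTL3 in 80.5% and 74.7%.

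The share of beta-subunit UMIs among all subunit UMIs of a cell had a median of 3.07% in follicle 1 and 1.01% in follicle 2. In cluster 0 the medians were 1.67% and 0.820%. In cluster 1 they were 28.9% and 2.97%, and the upper 5% of follicle 1 cells in that cluster exceeded 72%. Beta-subunit UMIs outnumbered INHA UMIs in 589 of 9343 cells of follicle 1 (6.30%), of which 506 were in cluster 1 and 82 in cluster 3. In follicle 2 this held for 65 of 7738 cells (0.840%), of which 64 were in cluster 2. The part of free RNA in the INHA of cluster 2 was not tested. Of the follicle 1 cells, 55.3% held a beta-subunit UMI and no FST UMI and 30.4% held both. In follicle 2 these shares were 42.1% and 23.2%. FST was found in 34.9% and 33.9% of thinned cells of follicles 1 and 2, against 53.7% and 54.6% before thinning. A cell with no FST UMI may thus still hold its transcript. The overlap was not set against that expected from the separate shares.

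**Figure D5:**
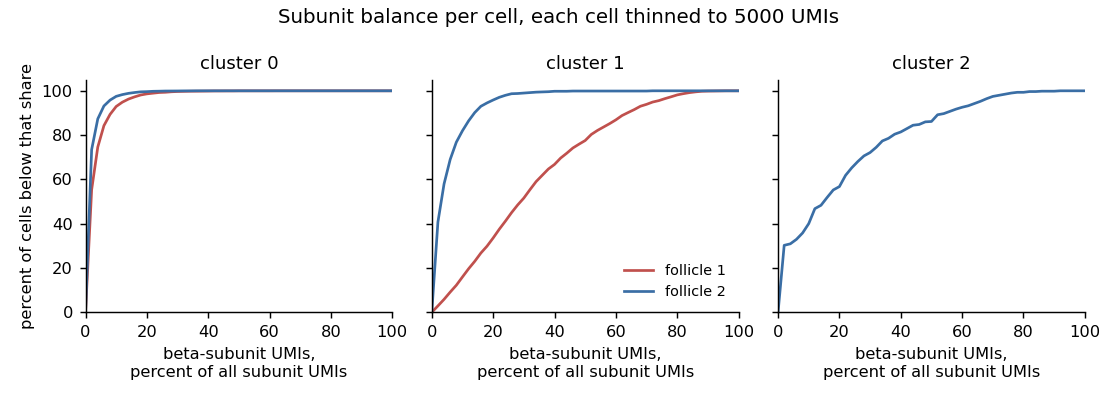
Cumulative share of cells by the percentage of a cell's subunit UMIs (INHA, INHBA and INHBB) that came from the beta subunits, after thinning to 5000 UMIs, in clusters 0, 1 and 2 of follicle 1 (red) and follicle 2 (blue). The curves lie apart in cluster 0 (medians of 1.67% and 0.820%) and further apart in cluster 1 (28.9% and 2.97%), while cluster 2 holds follicle 2 cells alone (median 14.3%).

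Across single cells of follicle 1, INHA and INHBA ran in opposite directions, with a Pearson correlation of log(1 + UMIs) of -0.53 over 9343 thinned cells that share 1 library. In follicle 2 the value was -0.03 over 7738 cells. INHA and INHBB gave -0.42 and -0.33, and INHBA and INHBB 0.40 and 0.10. Within cluster 0 the INHA and INHBA values were -0.13 in follicle 1, nearer 0 than over all its cells, and -0.07 in follicle 2. The genes whose pattern was most like that of INHBA in both follicles were VCAN (0.71 and 0.30), the unnamed gene ENSSSCG00000011147 (0.40 and 0.27), PDCD4, APOA1 and MRO, and the least like it were IL33 (-0.52 and -0.25), RPS12 and ACTG1. For INHA, HADH (0.46 and 0.45), AMIGO2, AREG, ANXA2 and IGFBP7 were most alike and THBS1 (-0.49 and -0.45), S1PR1 and CTGF least. INHBB went with THBS1 (0.38 and 0.24), ID3, F3, S1PR1 and CTGF, and had its lowest values with INHA, ANXA2 and SDC4. All values for FST with single genes were weak, from -0.20 to 0.13 over the genes taken by the same rule, which are ANXA5, TNFRSF6B, FAM198B, GJA1, ENSSSCG00000035675, ALDH3A2, TFPI2 and ENSSSCG00000015545.

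The type I receptors outnumbered the type II receptors in transcripts, with 5.23 type I UMIs for each type II UMI in follicle 1 (4.96 to 5.51) and 4.36 in follicle 2 (4.13 to 4.62). ACVR1B gave 65.5% of type I UMIs in follicle 1 and 57.5% in follicle 2, and ACVR2A gave 82.6% and 80.9% of type II UMIs. In thinned cells, a UMI of ACVR1B was found in 21.6% of follicle 1 and 15.5% of follicle 2, ACVR1 in 12.0% and 12.3%, ACVR2A in 5.93% and 5.34%, and ACVR2B in 1.30% and 1.42%. Before thinning ACVR1B was found in 41.7% and 35.5% of cells. Both a type I and a type II receptor UMI were found in 2.29% of thinned cells of follicle 1 (Clopper-Pearson interval 2.00 to 2.61%) and 1.89% of follicle 2 (1.60 to 2.22%), against 9.16% and 9.36% at full depth. The shares thus fell with depth in both follicles. The 4 receptors had 0 UMIs in the 8 and 35 red-cell-like barcodes, which allows up to 36.9% and 10.0% of such barcodes with a UMI of any 1 receptor. At 5000 UMIs per cell, the follicle 2 shares of ACVR1B and ACVR1 stood above the 10.0% limit and those of ACVR2A and ACVR2B did not. In follicle 1 the shares of all 4 receptors were below the 36.9% limit. The match in depth is rough, since those barcodes had median depths of 3036.5 and 4285 UMIs, with over 50% of UMIs from HBB.

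Of the wider pathway, 40 genes were listed, FOXL2 was not analysed here, and 29 of the other 39 were above the floor of 200 UMIs. Of these 29, 0 were higher and 3 were lower in follicle 2 by over 1.5-fold, beside the 2.13% and 4.16% of all genes. FSTL4, a follistatin-like gene, was at 3.43 CPM in follicle 1 and 0.45 CPM in follicle 2, on 382 and 49 UMIs. PMEPA1, a target and inhibitor of SMAD signalling, was at 193 and 108 CPM, a ratio of 0.559 (0.546 to 0.571). BMPR1B, a type I receptor for BMP ligands, was at 843 and 553 CPM, a ratio of 0.656. In cluster 1, PMEPA1 was at 453 CPM in follicle 1 and 165 CPM in follicle 2, BMPR1B at 1525 and 783 CPM, and FSTL4 at 10.7 and 0.824 CPM. In cluster 0 PMEPA1 was at 96.3 and 94.6 CPM and BMPR1B at 587 and 529 CPM, and FSTL4 had 45 and 21 UMIs.

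The other pathway genes were within 1.5-fold or under the floor, and those named here were picked after their values were seen. The SMAD group had 1 of 10 genes above the floor past the limit, which was PMEPA1. SMAD2, a mediator of activin signalling, was at 107 CPM in follicle 1 and 91.4 CPM in follicle 2, and SMAD3, the other mediator, at 10.4 and 12.6 CPM. SMAD7, an inhibitory SMAD induced by this signalling, had 160 UMIs in follicle 1 and 36 in follicle 2 and fell under the floor. TGFBR3, the inhibin co-receptor, was at 7.05 and 7.42 CPM. The 4 convertases that cut subunit precursors were all within the limit, with FURIN at 165 and 164 CPM. Among the regulators, 0 of 7 were past the limit, and NR5A2, a nuclear receptor of steroidogenic cells, was at 570.1 and 486 CPM. The subunit genes INHBC and INHBE and the co-receptor TDGF1 had 0 UMIs in both follicles.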

How the data were processed

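Per the labels and the study's methods, single-cell libraries were aligned and counted with CellRanger (version 6.0.2), and the deposited matrices hold the UMI counts of each gene in each barcode. The annotation release used is not given in the sources used here. The files hold 14289 barcodes for follicle 1 and 15548 for follicle 2, with 125409747 and 127414267 UMIs, and 0 columns of per-sample values were left unused.

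Barcodes with 2000 to 5000 genes and under 7% mitochondrial UMIs were kept, and doublets were kept in the main values. UMIs were summed over cells and given as CPM with exact Poisson intervals, ratios with exact conditional intervals and shares with Clopper-Pearson intervals, all at 95% and for counting error only. Cells were thinned to 5000 UMIs for shares and correlations. Clusters came from Seurat (version 5.3.0) anchor integration in R 4.3.3 over 2000 variable genes without the members or the pathway list, 40 components and the lowest resolution that gave 6 clusters. Other steps used Python 3.11.15, numpy 2.4.6, scipy 1.17.1, pandas 2.3.3 and scanpy 1.11.5. The scripts were tested on simulated data.

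With 1 library per follicle no test was made, and a difference was counted when past 1.5-fold among genes with at least 200 UMIs in both groups summed. The members and gene lists were chosen with earlier results of these data known. Named were all members, the pathway genes past 1.5-fold, the leading genes of each cluster, and for INHA, INHBA, INHBB and FST the 5 genes of highest and 3 of lowest correlation in both follicles among genes with at least 0.1 UMI per thinned cell. Alternatives were removal of the 6.9% of barcodes with the highest Scrublet doublet scores, other gene, mitochondrial and depth limits, other scalings and other clusterings. Upstream bases are printed for INHBB alone.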

Additional observations from a re-analysis of the deposited data

Results flagged for a closer look

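FSTL3 differed in opposite directions between clusters in the follicles. Its level in cluster 1 was 1.41-fold that of cluster 0 in follicle 1 and 0.954-fold in follicle 2, both within 1.5-fold. FST in cluster 5 was 1.52-fold its level in cluster 0 in follicle 1, on 26 cells and 70 UMIs, and 0.456-fold in follicle 2, on 33 cells and 27 UMIs. Cluster 5 held 0 leukocyte-like cells in follicle 1 and 9 in follicle 2, and its leukocyte markers summed to 12.2 and 872 CPM. Its interferon-responding markers summed to 10534 and 4744 CPM, so its cells were not the same mix in both follicles. The part of that mix in the FST ratios was not tested, and no share of all genes was counted for cluster 5. With 1 library per follicle neither difference was tested.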

How the results depend on the processing

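Under every alternative run for the follicle levels, the members past 1.5-fold stayed at 2 lower and 0 higher. The log2 ratio of INHBA ranged from -2.01 to -1.94 and that of INHBB from -1.67 to -1.21, the last with the mean of per-cell CPM. No ratio past 1.5-fold changed sign. Of those within it, ACVR1 between follicles went from -0.02 to 0.03 on the log2 scale with thinning to 5000 UMIs and to 0.0003 with the other library size. Between clusters 1 and 0 of follicle 2, INHBB went from 0.05 to -0.25 and FST from 0.12 to -0.02 without the highest doublet scores. The INHA to beta-subunit ratio moved beyond its counting interval, from 9.44 in follicle 1 to 9.26 without the highest doublet scores, 9.34 with 500 to 6000 genes, 9.53 with a mitochondrial limit of 10%, 9.33 with all barcodes, 9.18 with thinning to 5000 UMIs and 9.13 with the mean of per-cell CPM. In follicle 2 it moved from 42.5 to 41.9 without the highest doublet scores, 41.8 with 500 to 6000 genes, 41.5 with all barcodes, 41.5 with thinning and 40.5 with per-cell CPM, and stayed within its interval at 42.6 with the mitochondrial limit of 10%. Thinning to 3000 UMIs put both receptor types in 0.993% of cells of follicle 1 and 0.612% of follicle 2, fewer UMIs by construction. Members past 1.5-fold between clusters 1 and 0 of follicle 2 numbered 4 without integration and 3 with 20 components, against 1, and the cause was not tested. With no floor, 12.7% of all genes were higher and 12.0% lower in follicle 2. No paired analysis was possible because each follicle has 1 library and the labels pair none, and contrasts of clusters within a follicle were left as values with no test. The follicles come from 1 pig, so follicle, library and handling cannot be told apart.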
